A study of Saccharomyces cerevisiae with 14 samples.

Results

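The 96 sites described here lay in 94 yeast genes. On the mean over hours, each was cut less by MazF in the middle of a meiotic time course than early in it. From the middle to the last hours this mean rose by less than 0.04 or went down. MazF, a bacterial toxin, is an endoribonuclease that cuts RNA at the motif ACA, on its 5′ side, and a methyl group on the first A blocks the cut. The deposited table gave a cleavage efficiency for each site and hour, a fraction that goes up with the share of RNA cut there. The members were chosen by these cleavage efficiencies themselves. A site was a member when it had a value at 1, 2, 3.5, 4, 5, 7 and 8 h and met both conditions that follow. Its early mean (1 and 2 h) had to exceed its mid mean (3.5, 4 and 5 h) by at least 0.04, and its late mean (7 and 8 h) had to exceed the mid mean by less than 0.04. Of 1184 distinct sites in 1009 genes, 395 had these 7 values, and the 96 members were 24.3% of them.

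The cells were diploid SK1, a strain widely used for meiosis because its cells sporulate fast and together. At every hour alike they were MAT a/alpha and carried lys2, ho::LYS2 and ndt80::LEU2 on both copies. NDT80 encodes the transcription factor needed to leave pachytene, so cells without it do not go on to the meiotic divisions and the late hours stand for cells held there. The course had 1 library of polyA RNA at each of 0, 1, 2, 3, 3.5, 4, 5, 6, 7 and 8 h after meiosis was induced, and no label tells if they share 1 culture. Of the series' 14 samples, the 4 controls at 8 h, 2 of them wild type at IME4 and 2 carrying ime4::HIS3, were not analysed here, so whether any value depends on Ime4 was not tested.

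In budding yeast, mRNA is methylated at adenosines during meiosis by a complex that holds the methyltransferase Ime4 with Mum2 and Slz1. The mark accumulates as cells starved of nitrogen and glucose enter meiosis, and the YTH-domain protein Pho92 binds it. A lower cleavage efficiency means that more of the RNA was left uncut at that site, and methylation of the ACA is a known way for RNA to be left uncut. Chromosome positions are printed as deposited, in a build not given in the sources used here. Gene positions are the numbers attached to each gene name in the table. The values do not by themselves say which ACA carries a methyl group.

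Because the rule used the libraries at 1, 2, 3.5, 4, 5, 7 and 8 h, the values at those hours are given as a description, without a test. The 0, 3 and 6 h libraries were not used by it. Among the members the early mean exceeded the mid mean by a median of 0.0872, with a range from 0.0401 to 0.360, against a median of 0.0303 over all 395 sites. The late mean stood a median of 0.00198 above the mid mean, with a range from -0.281 to 0.0382. Just inside the first threshold were MEP1 (early minus mid 0.0401), HAP4 (0.0408) and TLD1 (0.0413), and just outside it PRE10 (0.0394), CSC1 (0.0392) and JEN1 (0.0385). Just inside the second were YAP5 (late minus mid 0.0382), PUP2 (0.0377) and KIN2 (0.0373), and just outside it TBS1 (0.0413), CAB3 (0.0415) and CDC3 (0.0424). Sites therefore lay on both sides of each threshold with nearly the same values, and the 73 sites past the second threshold, called here sites with a dip and return, join the members without a gap. For MEP1 and HAP4, leaving out the 1 h library turned early minus mid negative, to -0.0128 and -0.0393.

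**Figure D1:**
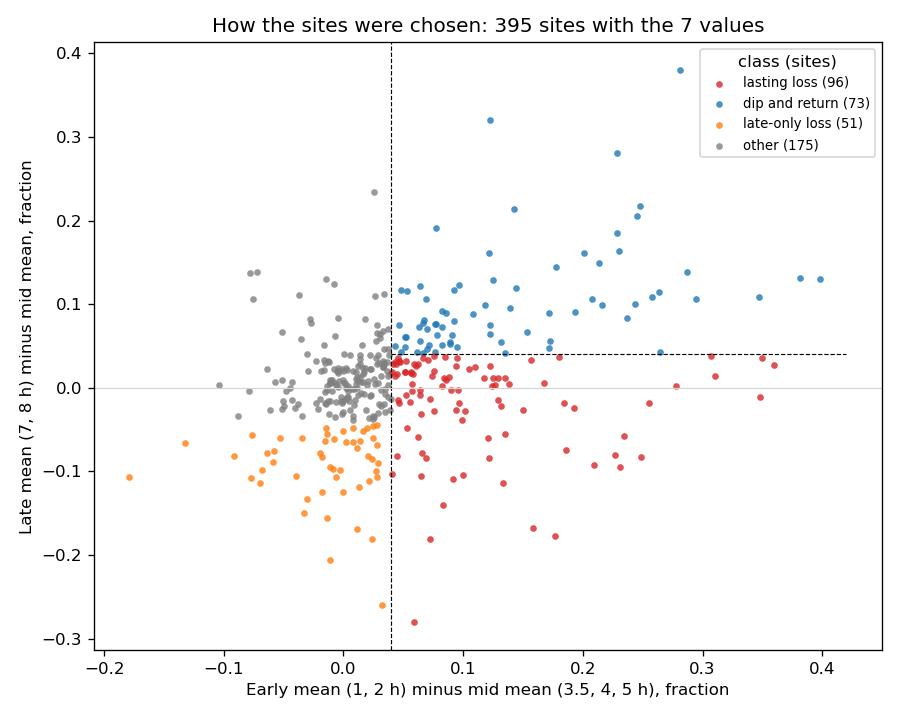
Early minus mid mean (x axis) against late minus mid mean (y axis), in fractions of cleavage efficiency, for the 395 sites with the 7 values of the rule. Each point is 1 site, dashed lines mark the thresholds of 0.04, and the 96 members fill the lower right field next to 73 sites with a dip and return, with no gap between the classes.

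Over the 96 members the median cleavage efficiency was 0.916 at hour 1, 0.865 at hour 2 and 0.848 at hour 3. It was 0.805 at hour 3.5, 0.820 at hour 4, 0.791 at hour 5 and 0.786 at hour 6. The lowest median was 0.763 at hour 7, and at 8 h it was 0.799. Over the other 299 sites with the 7 values it was 0.901 at hour 1, 0.879 at hour 3.5, 0.862 at hour 6 and 0.898 at hour 8. The sites cut by less than 0.5 numbered 0 of 96 members at hour 1, 9 at hour 3.5, 14 at hour 5, 15 at hour 7 and 10 at hour 8. In the same order these were 0%, 9.38%, 14.6%, 15.6% and 10.4% of the members. Over the other 299 sites the shares were 4.01%, 8.36%, 8.70%, 7.02% and 5.69%.

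Sizes differed widely among the members. Early minus mid was at least 0.2 at 12 sites, from 0.1 to under 0.2 at 27, and under 0.1 at 57. The mid mean stayed at 0.8 or above at 46 members and was under 0.5 at 9, so in most of them the larger part of the RNA was still cut. All 3 mid values lay below both early values at 70 members, both late values did at 66, and the mid and late values all lay below both early values at 55. At the other 41, at least 1 mid or late library overlapped the early ones. The late mean was lower than the mid mean by at least 0.04 at 24 members and within 0.04 of it at 72. The lowest of a member's values fell in the 7 h library at 28 sites, the 6 h library at 22, the 5 h library at 17 and the 8 h library at 10. The rule itself favours low values after 2 h, and this tally was not made for the other 299 sites. At 66 of 96 members (68.8%) the 8 h value was above the 7 h value, as it was at 172 of the other 299 sites (57.5%).

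Membership often turned on single libraries. Leaving out each of the 7 libraries in turn kept 33 of the 96 sites as members every time. Of the 12 with the largest difference, REG1, RIM4, GFA1, AIM2, AIM41, SRT1, FAA1 2201 and TPT1 were kept in all 7. YDR524C-B and SAE3 were lost without the 7 h library, MDM1 without the 4 or the 7 h library, and YAP5 without the 3.5 or the 7 h library. These losses came from the second condition, since early minus mid was far above its threshold.

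**Figure D2:**
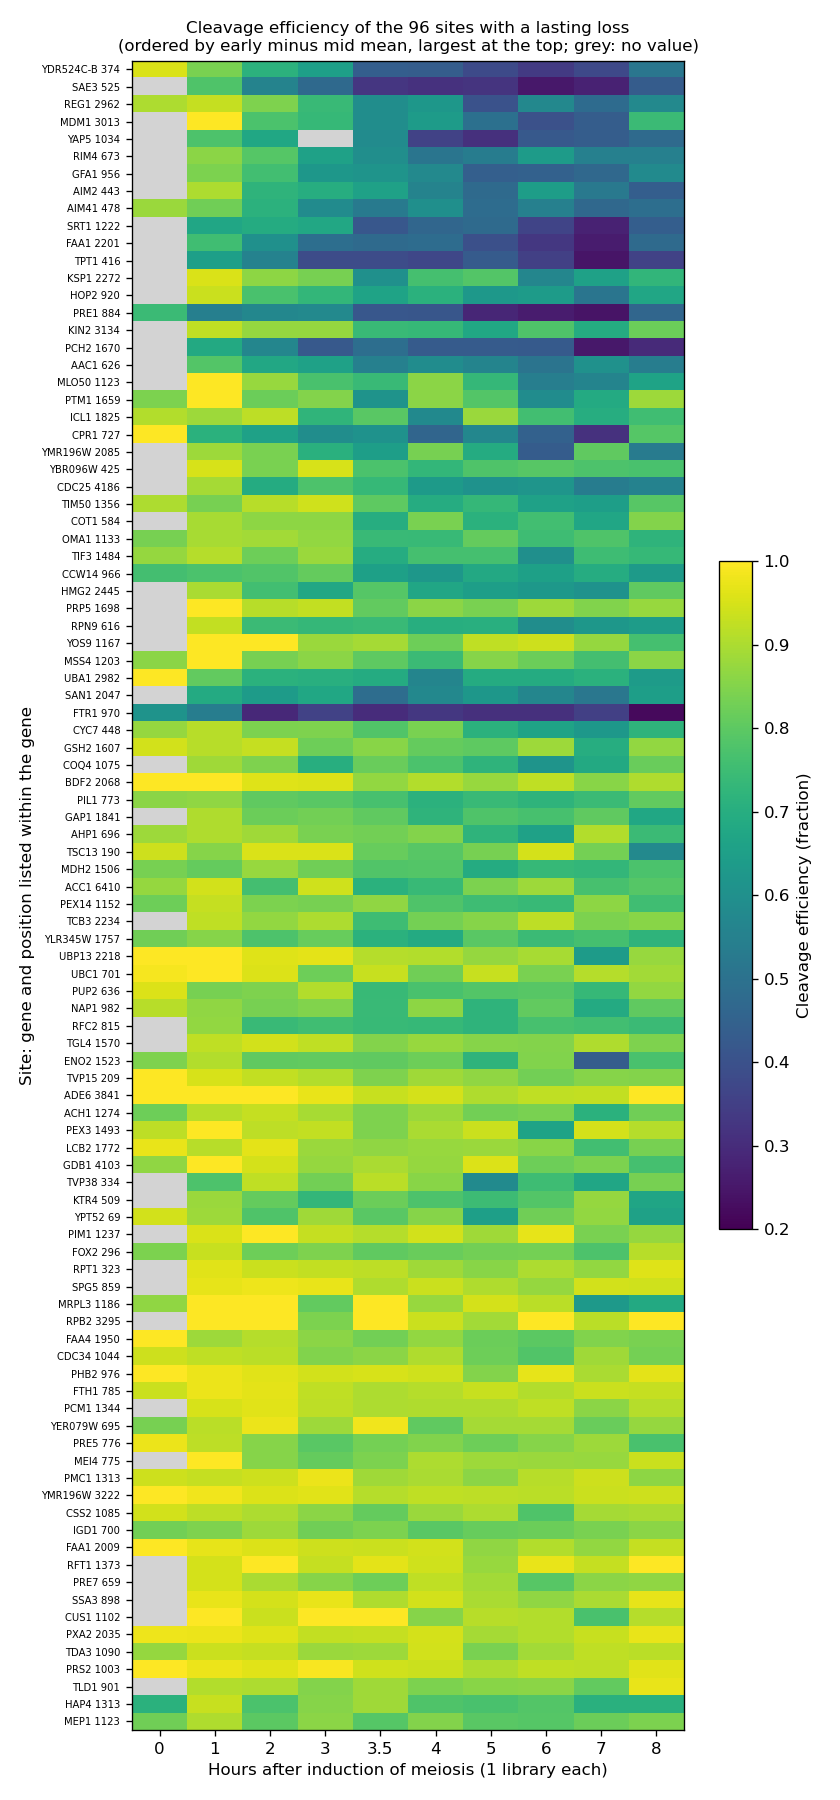
Cleavage efficiency (colour, fraction) of each of the 96 members (rows, ordered by early minus mid mean with the largest at the top) at each hour (columns, 1 library each), with grey where the table had no value. Colours mostly darken after 2 or 3 h and mostly stay darker to 8 h, most strongly in the 12 top rows, while many lower rows stay above 0.8 throughout.

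Genes of meiosis held some of the largest differences. Of 9 sites of meiotic recombination and synapsis with the 7 values, 4 were members (44.4%, against 24.3% of all such sites), in SAE3, HOP2, PCH2 and MEI4. None of the 4 had a value at 0 h. SAE3 (YHR079C-A, chromosome 8, position 261443, minus strand) encodes a protein that helps to load the meiotic recombinase Dmc1. Its site was cut by 0.780 at hour 1, 0.559 at hour 2, 0.474 at hour 3, 0.325 at hour 3.5, 0.315 at hour 4, 0.320 at hour 5, 0.251 at hour 6, 0.278 at hour 7 and 0.434 at hour 8. All values from 3 h on lay below both early values, and the 8 h value was the highest of the last 6. Its late minus mid of 0.0358 was close to the second threshold.

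HOP2 (YGL033W, chromosome 7, position 445936, plus strand) acts in the pairing of homologous chromosomes. It was cut by 0.935 at hour 1, 0.770 at hour 2, 0.729 at hour 3, 0.663 at hour 3.5, 0.711 at hour 4, 0.626 at hour 5, 0.638 at hour 6, 0.511 at hour 7 and 0.674 at hour 8. Every value after 2 h was below both early ones, and the lowest was at 7 h. Another site of HOP2, at position 852 and 68 bases away, had values from 2 h on only, and was cut little at each of those hours, from 0.00998 at hour 8 to 0.0387 at hour 2.

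PCH2 (YBR186W, chromosome 2, position 589328, plus strand), an ATPase that acts in the checkpoint on meiotic recombination, was cut by 0.686 at hour 1, 0.568 at hour 2, 0.424 at hour 3, 0.490 at hour 3.5, 0.430 at hour 4, 0.431 at hour 5, 0.426 at hour 6, 0.252 at hour 7 and 0.295 at hour 8. It went down in steps, with values of 0.424 to 0.490 from 3 to 6 h and lower ones at 7 and 8 h. Its late minus mid of -0.177 was among the 6 lowest of all members. MEI4 (YER044C-A, position 775), whose product is needed for the double-strand breaks that start recombination, was cut by 1.00 at hour 1 and by 0.810 to 0.937 from 2 h on. Without the 1 h library its early minus mid was -0.0208 in place of 0.0521. It was also no member without the 3.5 or 4 h library or with the libraries shifted or scaled to 1 median. In these settings SAE3, HOP2 and PCH2 remained members, 3 of 9 sites after shifting (33.3%, against 15.4% of all sites with the 7 values). Without the 7 h library only HOP2 and PCH2 of the list were members. That was 2 of 9 sites (22.2%), near the 18.7% of all sites with the 7 values.

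RIM4 (YHL024W, chromosome 8, position 57515, plus strand), an RNA-binding repressor of translation that controls meiotic entry and exit, was 1 of 2 sites of regulators of meiotic entry with the 7 values, the other being a site with a dip and return. Its values were 0.862 at hour 1, 0.788 at hour 2, 0.659 at hour 3, 0.594 at hour 3.5, 0.511 at hour 4, 0.537 at hour 5, 0.640 at hour 6, 0.549 at hour 7 and 0.550 at hour 8. They were lowest at 4 h and did not regain the early values later. In the sporulation list 1 of 3 sites was a member, in SPG5, a gene named for stationary phase and not for sporulation. It was at 0.969 at hour 1, 0.905 at hour 5 and 0.944 at hour 8. With the libraries shifted or scaled to 1 median the list held no member. None of the 2 sites of the methylation machinery and reader was a member.

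Protein degradation was the list with the most members beside lipid synthesis. Of 14 sites with the 7 values, 7 were members (50.0%, against 24.3%), namely PRE1, RPN9, SAN1, PUP2, RPT1, PRE5 and PRE7. All but SAN1 encode subunits of the proteasome, with PRE1, PUP2, PRE5 and PRE7 in its core particle and RPN9 and RPT1 in the regulatory particle, while SAN1 encodes a ubiquitin ligase of nuclear quality control. PRE1 (YER012W, chromosome 5, position 184256, plus strand) was cut by 0.744 at hour 0, 0.544 at hour 1, 0.569 at hour 2, 0.576 at hour 3, 0.416 at hour 3.5, 0.415 at hour 4, 0.286 at hour 5, 0.260 at hour 6, 0.243 at hour 7 and 0.465 at hour 8. Its values from 3.5 h on were all below those of the first hours, and the lowest came from 5 to 7 h.

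RPN9 (YDR427W, position 616) was at 0.928 at hour 1, 0.747 at hour 2, 0.701 at hour 4, 0.593 at hour 6 and 0.641 at hour 8. Without the 1 h library its early minus mid was 0.0310 in place of 0.121, under the threshold. SAN1 (YDR143C, position 2047) was at 0.690 at hour 1, 0.485 at hour 3.5, 0.566 at hour 6 and 0.649 at hour 8, the last above its 2 h value of 0.639. PUP2 (YGR253C, position 636) was at 0.957 at hour 0, 0.837 at hour 1, 0.739 at hour 3.5, 0.793 at hour 6 and 0.869 at hour 8, and its 8 h value was above both early ones. The remaining 3 had early minus mid between 0.0452 in PRE7 and 0.0608 in RPT1. With the libraries shifted or scaled to 1 median RPT1, PRE5 and PRE7 were no longer members, which left 4 of 14 (28.6%), against 15.4% of all sites with the 7 values after shifting. The list had 4 members without the 1 h library (28.6%, against 22.8% of all sites with the 7 values). Leaving out the 2 h library gave 10 (71.4%, against 33.4%). Of the 7 members, 3 remained without the 7 h library and 6 without the 8 h library. The list then counted 4 and 12 sites. These 2 counts can include sites outside the 14 that lacked the left-out value, so no share is given for them. The count of the list thus moved with single libraries, and so did the share over all sites. Other members of the ubiquitin system, picked after their values were seen, were UBA1, the ubiquitin-activating enzyme, the conjugating enzymes UBC1 and CDC34, and the deubiquitinase UBP13.

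Of 20 sites of lipid, inositol and sterol synthesis, 7 were members (35.0%, against 24.3%), in FAA1 with 2 sites, HMG2, ACC1, TGL4, LCB2 and FAA4. FAA1 (YOR317W, chromosome 15, position 921316, plus strand), a long-chain fatty acyl-CoA synthetase, was cut at gene position 2201 by 0.754 at hour 1, 0.602 at hour 2, 0.488 at hour 3, 0.475 at hour 3.5, 0.482 at hour 4, 0.395 at hour 5, 0.331 at hour 6, 0.262 at hour 7 and 0.478 at hour 8. The values after 2 h were all below the early ones, with the lowest at 7 h. At position 2009, 192 bases away, the same RNA was cut by 1.00 at hour 0, 0.969 at hour 1, 0.937 at hour 3.5, 0.908 at hour 6 and 0.930 at hour 8, so both sites were members at very different levels.

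HMG2 (YLR450W, position 2445), an isoenzyme of HMG-CoA reductase in sterol synthesis, was at 0.898 at hour 1, 0.758 at hour 2, 0.681 at hour 3, 0.649 at hour 5, 0.607 at hour 7 and 0.805 at hour 8. ACC1 (YNR016C, position 6410), acetyl-CoA carboxylase, was at 0.946 at hour 1, 0.760 at hour 2, 0.942 at hour 3, 0.712 at hour 3.5 and 0.788 at hour 8. Its 2 h value lay among its mid values, and without the 1 h library its early minus mid was -0.00450 in place of 0.0885. TGL4 (YKR089C, position 1570), a triacylglycerol lipase, stayed between 0.845 at hour 8 and 0.946 at hour 2. With the libraries shifted or scaled to 1 median LCB2, FAA4 and FAA1 2009 were no longer members, which left 4 of 20 (20%), against 15.4% of all sites with the 7 values after shifting.

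Nutrient signalling genes held 3 members among 8 sites (37.5%, against 24.3%), in REG1, CDC25 and GAP1. REG1 (YDR028C, chromosome 4, position 510323, minus strand) encodes the subunit that directs the phosphatase Glc7 to glucose repression. It was cut by 0.901 at hour 0, 0.928 at hour 1, 0.845 at hour 2, 0.742 at hour 3, 0.591 at hour 3.5, 0.625 at hour 4, 0.401 at hour 5, 0.574 at hour 6, 0.479 at hour 7 and 0.577 at hour 8. The 3 libraries from 0 to 2 h were high, the 3 h value stood between, and all later ones were lower. CDC25 (YLR310C, position 4186), the exchange factor that activates Ras, was at 0.892 at hour 1, 0.694 at hour 2, 0.607 at hour 5, 0.535 at hour 7 and 0.556 at hour 8. Without the 1 h library its early minus mid was 0.0344 in place of 0.134, under the threshold. GAP1 (YKR039W, position 1841), the general amino acid permease, was at 0.904 at hour 1, 0.721 at hour 4 and 0.678 at hour 8.

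Among genes of carbon use, 3 of 10 sites of the glyoxylate cycle, gluconeogenesis and the use of acetate were members (30.0%), in ICL1, MDH2 and ACH1. ICL1 (YER065C, position 1825), isocitrate lyase of the glyoxylate cycle, varied from hour to hour, with 0.921 at hour 2, 0.725 at hour 3, 0.794 at hour 3.5, 0.579 at hour 4, 0.881 at hour 5 and 0.754 at hour 8. Its 5 h value equalled its 1 h value to 3 digits, so the hours overlapped. MDH2, cytosolic malate dehydrogenase, was at 0.878 at hour 2, 0.694 at hour 5 and 0.772 at hour 8, and ACH1, a mitochondrial acetyl-CoA hydrolase, at 0.929 at hour 2 and 0.710 at hour 7. Of 8 sites of glycolysis and fermentation 1 was a member (12.5%), in ENO2, enolase. It was at 0.909 at hour 1, 0.847 at hour 6, 0.436 at hour 7 and 0.769 at hour 8, and its late mean rested on the single low 7 h value. Without the 1 h library it was no member.

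Respiration had 2 members among 10 sites (20.0%), in CYC7, an isoform of cytochrome c, and HAP4, part of the Hap complex that activates genes of respiration. CYC7 was at 0.913 at hour 1, 0.710 at hour 5, 0.627 at hour 7 and 0.719 at hour 8. HAP4 (position 1313) was at 0.712 at hour 0, 0.933 at hour 1, 0.772 at hour 2 and 0.709 at hour 8, so that its 0 h value, which the rule did not use, was as low as its late ones. Heat shock and general stress had 2 members among 9 sites (22.2%). They were in SSA3, an Hsp70 chaperone, at 0.974 at hour 1 and 0.868 at hour 6, and in GDB1, the glycogen debranching enzyme, at 1.00 at hour 1 and 0.763 at hour 8. Neither was a member without the 1 h library or after shifting or scaling, and HAP4 was none either. Another member was IGD1, which encodes an inhibitor of Gdb1 and was picked after its values were seen, with 0.884 at hour 2 and 0.795 at hour 4.

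Of 17 sites of the cell wall and protein glycosylation, 4 were members (23.5%, near the 24.3% of all sites). After shifting or scaling 2 were (11.8%, against 15.4% and 15.7% of all sites with the 7 values). GFA1 (YKL104C, chromosome 11, position 246385, minus strand), which starts the synthesis of the amino sugar of chitin, was cut by 0.841 at hour 1, 0.759 at hour 2, 0.623 at hour 3, 0.614 at hour 3.5, 0.577 at hour 4, 0.443 at hour 5, 0.450 at hour 6, 0.471 at hour 7 and 0.582 at hour 8. The values from 5 to 7 h were the lowest and close together. CCW14, a mannoprotein of the inner cell wall, was at 0.784 at hour 2 and 0.624 at hour 4, and KTR4 and PCM1, of mannosylation and amino sugar synthesis, had early minus mid of 0.0640 and 0.0552. Single members stood in the lists of translation factors, with TIF3 (of 2 sites), and of DNA replication, cohesin and repair, with RFC2 (of 4 sites). The 7 sites of vacuolar proteases, autophagy and the proton pump and the 2 histone sites held no member. No site of the ribosome biogenesis, mitotic growth or haploid and mating lists had the 7 values.

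Several of the 12 members with the largest difference belonged to none of these lists. YDR524C-B (chromosome 4, position 1482669, minus strand), a small open reading frame, had the largest, with 0.955 at hour 0, 0.838 at hour 1, 0.715 at hour 2, 0.652 at hour 3, 0.438 at hour 3.5, 0.436 at hour 4, 0.378 at hour 5, 0.336 at hour 6, 0.376 at hour 7 and 0.514 at hour 8. Each library up to 6 h was lower than the one before it, and the value at 8 h was above those from 3.5 h on. MDM1 (YML104C, chromosome 13, position 67245, minus strand), which tethers the endoplasmic reticulum to the vacuole, was at 1.00 at hour 1, 0.772 at hour 2, 0.736 at hour 3, 0.592 at hour 3.5, 0.640 at hour 4, 0.495 at hour 5, 0.398 at hour 6, 0.436 at hour 7 and 0.744 at hour 8. Its 8 h value was close to its 2 h value, and its late mean rested on the 7 h library.

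YAP5 (YIR018W, chromosome 9, position 390080, plus strand), a transcription factor that responds to high iron, had no value at 0 or 3 h. Its values were 0.776 at hour 1, 0.675 at hour 2, 0.587 at hour 3.5, 0.356 at hour 4, 0.312 at hour 5, 0.424 at hour 6, 0.436 at hour 7 and 0.478 at hour 8. They were lowest at 5 h and higher in each library after it. SRT1 (YMR101C, chromosome 13, position 457272, minus strand), a cis-prenyltransferase of dolichol synthesis, was at 0.673 at hour 1, 0.692 at hour 2, 0.679 at hour 3, 0.418 at hour 3.5, 0.463 at hour 4, 0.475 at hour 5, 0.363 at hour 6, 0.275 at hour 7 and 0.439 at hour 8. Its first 3 values were level, and the step came between the 3 h and the 3.5 h library. TPT1 (YOL102C, chromosome 15, position 125675, minus strand), the phosphotransferase of tRNA splicing, was at 0.652 at hour 1, 0.556 at hour 2, 0.387 at hour 3, 0.386 at hour 3.5, 0.371 at hour 4, 0.428 at hour 5, 0.352 at hour 6, 0.245 at hour 7 and 0.359 at hour 8. Its values were nearly level from 3 to 6 h and lowest at 7 h.

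AIM2 (YAL049C, chromosome 1, position 61369, minus strand) and AIM41 (YOR215C, chromosome 15, position 756343, minus strand) complete the 12. AIM2 was at 0.903 at hour 1, 0.721 at hour 2, 0.698 at hour 3, 0.657 at hour 3.5, 0.557 at hour 4, 0.476 at hour 5, 0.646 at hour 6, 0.522 at hour 7 and 0.439 at hour 8. AIM41 was at 0.881 at hour 0, 0.827 at hour 1, 0.715 at hour 2, 0.587 at hour 3, 0.531 at hour 3.5, 0.597 at hour 4, 0.482 at hour 5, 0.548 at hour 6, 0.469 at hour 7 and 0.490 at hour 8. In both, all values after 2 h lay below the early ones. FTR1 (YER145C, position 970), the plasma membrane iron permease, was the member with the lowest early mean, at 0.416. It was at 0.611 at hour 0, 0.539 at hour 1, 0.293 at hour 2 and between 0.222 and 0.359 at all later hours. Its 2 h value was among the low ones, and without the 1 h library its early minus mid was -0.0219 in place of 0.101.

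Kinases, mitochondrial proteins and peroxins were also among the members and were picked after their values were seen. KSP1 (position 2272), a serine/threonine kinase, was at 0.955 at hour 1, 0.602 at hour 3.5, 0.786 at hour 5, 0.567 at hour 6 and 0.728 at hour 8, and KIN2 (position 3134), a kinase of polarised growth, was at 0.924 at hour 1, 0.677 at hour 5 and 0.820 at hour 8. Neither regained its early values. AAC1 (position 626), an ADP/ATP carrier of the inner mitochondrial membrane, was at 0.787 at hour 1, 0.550 at hour 3.5, 0.507 at hour 6 and 0.540 at hour 8, and its highest value after 3 h was 0.605 at hour 7. TIM50 (position 1356), a receptor of the protein import channel, was at 0.901 at hour 0, 0.944 at hour 3, 0.657 at hour 6 and 0.793 at hour 8, so its lower values began after 3 h. OMA1, a mitochondrial protease, was at 0.895 at hour 1 and 0.719 at hour 8. Among genes of peroxisomes, PEX14 was at 0.930 at hour 1 and 0.738 at hour 6, and PEX3 at 1.00 at hour 1, 0.937 at hour 5, 0.666 at hour 6 and 0.947 at hour 7, where the 6 h value stood alone. FOX2 and PXA2, of fatty acid oxidation and import, had early minus mid of 0.0620 and 0.0443. FTH1, which moves iron out of the vacuole, stayed between 0.902 at hour 3.5 and 0.976 at hour 1.

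**Figure D3:**
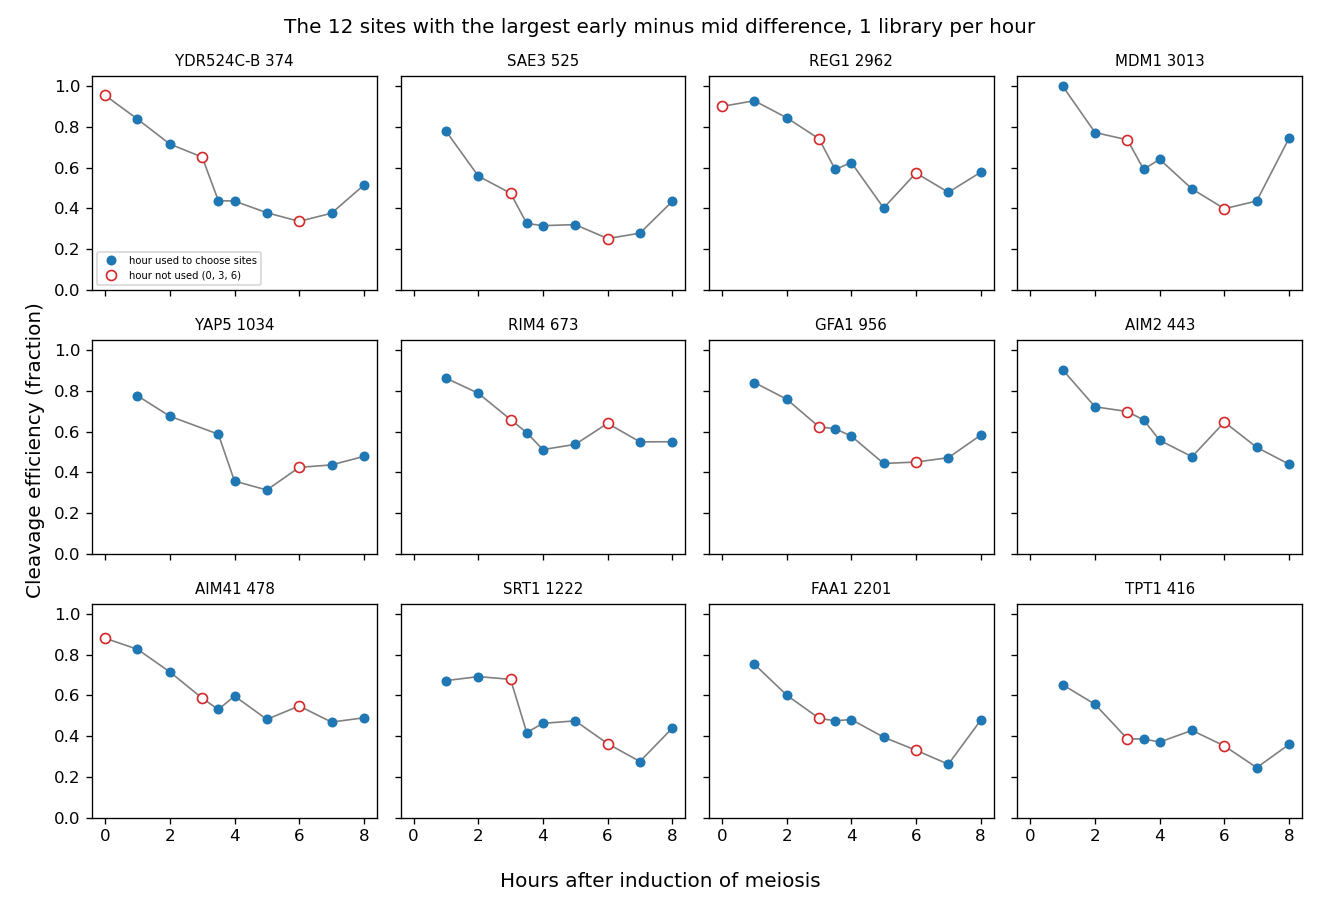
Cleavage efficiency (y axis, fraction) by hour (x axis) at the 12 members with the largest early minus mid difference, 1 library per hour, with filled points for hours that the rule used and open points for 0, 3 and 6 h, which it did not. The open points at 3 h mostly lie between the early and the mid values, and those at 6 h lie near the mid and late values, from 0.251 in SAE3 to 0.646 in AIM2.

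At some members the late values went below the mid ones. The 6 lowest values of late minus mid were -0.281 in MRPL3, a mitochondrial ribosomal protein, -0.181 in ENO2, -0.177 in PCH2, -0.167 in MLO50, -0.140 in UBP13 and -0.114 in CDC25. MRPL3 (YMR024W, position 1186) was at 0.867 at hour 0, 1.00 at hour 1, 1.00 at hour 2, 0.809 at hour 3, 1.00 at hour 3.5, 0.877 at hour 4, 0.947 at hour 5, 0.916 at hour 6, 0.634 at hour 7 and 0.687 at hour 8. Only its 7 and 8 h values stood clearly apart, and its 3.5 h value equalled the early ones. MLO50 (YLR049C, position 1123) was at 1.00 at hour 1, 0.876 at hour 2, 0.771 at hour 3, 0.742 at hour 3.5 and 0.862 at hour 4. It was at 0.734 at hour 5, 0.542 at hour 6, 0.560 at hour 7 and 0.665 at hour 8. All its values from 3 h on lay below both early ones, and those from 6 h on were the lowest. In UBP13 the 7 h value of 0.639 stood alone, against 0.896 at hour 6 and 0.876 at hour 8, as the 7 h value did in ENO2. The 7 h library, with 740 of 1184 sites listed, held the lowest value of more members than any other. This was not counted for the other sites.

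Sites of 1 gene could be compared in the same RNA and library. Of the 96 members, 29 (30.2%) lay in genes with 2 or more listed sites. In 12 genes a member and a site that was no member both had the 7 values, in 13 pairs. In 11 of the 13 pairs the member was the lower one at 6 h, the exceptions being pairs of TCB3 and YLR345W with a site of dip and return, in 8 it was the lower one at 3 h, and in 10 the change between these libraries was more negative in the member. In both of these the other site had the larger early minus mid. In YLR345W it was 0.0837 at the member, against 0.381 at position 1508, and in TCB3 it was 0.0850 at the member, against 0.287 at position 4343. The largest gap of all was in REG1, where position 3300, 338 bases from the member at 2962, stayed between 0.859 at hour 3.5 and 0.964 at hour 0. Its early minus mid was 0.0182, with a sign that turned when libraries were shifted to 1 median (-0.00868) or the 2 h library was left out (-0.00383). At 6 h the member of REG1 was at 0.574 and the other site at 0.895.

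CPR1 (YDR155C, a position also listed under YDR154C), the cyclophilin A of yeast, had the closest of the 13 pairs, 74 bases apart. Its member at position 727 (chromosome 4, position 783157, minus strand) was at 1.00 at hour 0, 0.712 at hour 1, 0.658 at hour 2, 0.593 at hour 3, 0.607 at hour 3.5, 0.461 at hour 4, 0.572 at hour 5, 0.450 at hour 6, 0.314 at hour 7 and 0.788 at hour 8. Position 653 stayed between 0.898 at hour 7 and 0.944 at hour 0. The 8 h value of the member was above both its early ones, so only the 7 h library kept its late mean low. In HMG2 the member at 2445 was at 0.626 at hour 6, against 0.912 at position 1971, and in UBA1 the member at 2982 was at 0.691, against 0.965 at position 539. In PCH2 the member was at 0.426 at hour 6, against 0.728 at position 1283. Leaving out the 1 h library turned early minus mid positive at UBA1 539 (0.0106) and PCH2 1283 (0.0531). In TCB3, a tether of the endoplasmic reticulum to the plasma membrane, the member at 2234 and position 4732 were at 0.919 and 0.954 at hour 6, and the member was the higher one at 1, 2 and 3 h. YMR196W held 2 members, 1137 bases apart, with 0.433 at position 2085 and 0.916 at 3222 at 6 h.

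**Figure D4:**
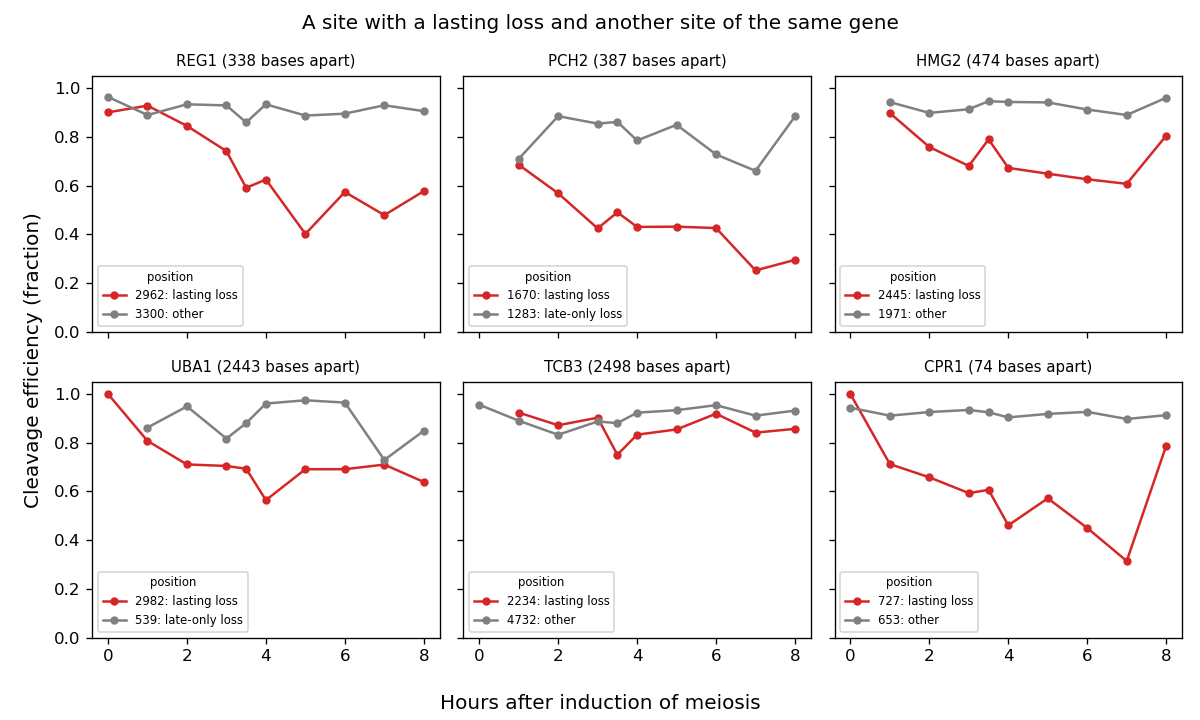
Cleavage efficiency (y axis, fraction) by hour (x axis) of a member (red) and of another site of the same gene (grey) in the 6 genes where early minus mid of the member exceeded that of the other site by most, 1 library per hour. In REG1, HMG2 and CPR1 the grey line stays at 0.859 or above at every hour while the red line goes below 0.65, and in TCB3 the lines cross.

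The libraries at 0, 3 and 6 h give values that are independent of the choice of members. At 6 h, 75 of 95 members were lower than at 3 h (78.9%), against 66.5% of the 388 sites with the 7 values of the rule that also had values at 3 and 6 h, and against 65% of all 836 sites with values in both libraries. The median of 6 h minus 3 h was -0.0637 over the members, -0.0213 over the other sites with the 7 values and -0.0384 over all 836. A difference of at least 0.04 downward was seen at 62 of 95 members (65.3%), against 47.7% and 49.3%. The largest was -0.338 in MDM1, and 20 members were level or higher at 6 h, up to 0.158 in RPB2, a subunit of RNA polymerase II. Over the members with a value at 0 h, 6 h minus 0 h had a median of -0.101 (54 sites), against -0.0536 over the other sites with the 7 values (160 sites). For 3 h minus 0 h these medians were -0.0375 and -0.0422, so that the median of the members was below that of the others between 3 and 6 h and not between 0 and 3 h. These shares are counts over sites in single libraries, and no test of them was made. With the libraries shifted to 1 median, 70.5% of members were lower at 6 h than at 3 h, against 53.4% of the 388 sites, with a median of -0.0389 in the members.

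By gene list, the sites lower at 6 h than at 3 h are set against the 66.5% of all 388 sites and their median of -0.0360. They were 16 of 20 lipid sites (median -0.0396), 10 of 14 of protein degradation (-0.0447), 7 of 8 of nutrient signalling (-0.0517) and 8 of 10 of respiration (-0.0474). They were fewer in meiotic recombination and synapsis, at 5 of 9 (-0.0208), and in heat shock, at 5 of 9 (-0.0512). In the cell wall list 9 of 17 were lower, with a median of -6.27e-05. The medians were above 0 in the list of acetate use, with 4 of 10 lower (0.00828), and in glycolysis, with 3 of 8 lower (0.0134). The lists thus lay on both sides of the median of all sites, and none of these differences was tested.

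A slope over these 3 libraries was fitted for all 273 sites with the 3 values with limma, and p-values were adjusted by the method of Benjamini and Hochberg. No site passed an adjusted p of 0.05 in either direction (0% of 273), members included, and the lowest adjusted p was 0.241. At an unadjusted p under 0.05, negative slopes were found in 13 of 54 members (24.1%), against 17.9% of all sites, and 0 members had a positive one. The slope was negative at 46 of the 54 members, or 85.2%, near the 83.2% of all sites. The median slope was -0.0169 per hour in the members and -0.0112 over all sites, with a median SE of 0.0114 in the members. The 3 members with the smallest p were YDR524C-B (slope -0.103 ± 0.0160 per hour, SE, limma adjusted p = 0.241), YMR196W at position 3222 (-0.0140 ± 0.00235) and ADE6, of purine synthesis (-0.0127 ± 0.00233). With 1 library at each of 3 hours a site has 1 residual degree of freedom, so a p above the threshold does not show that a site stayed level. With the libraries shifted to 1 median, negative slopes at an unadjusted p under 0.05 were found in 4 of the 54 members (7.41%), against 7.69% of all sites, and the median slope was -0.00515 per hour in the members and 0.000517 over all sites.

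**Figure D5:**
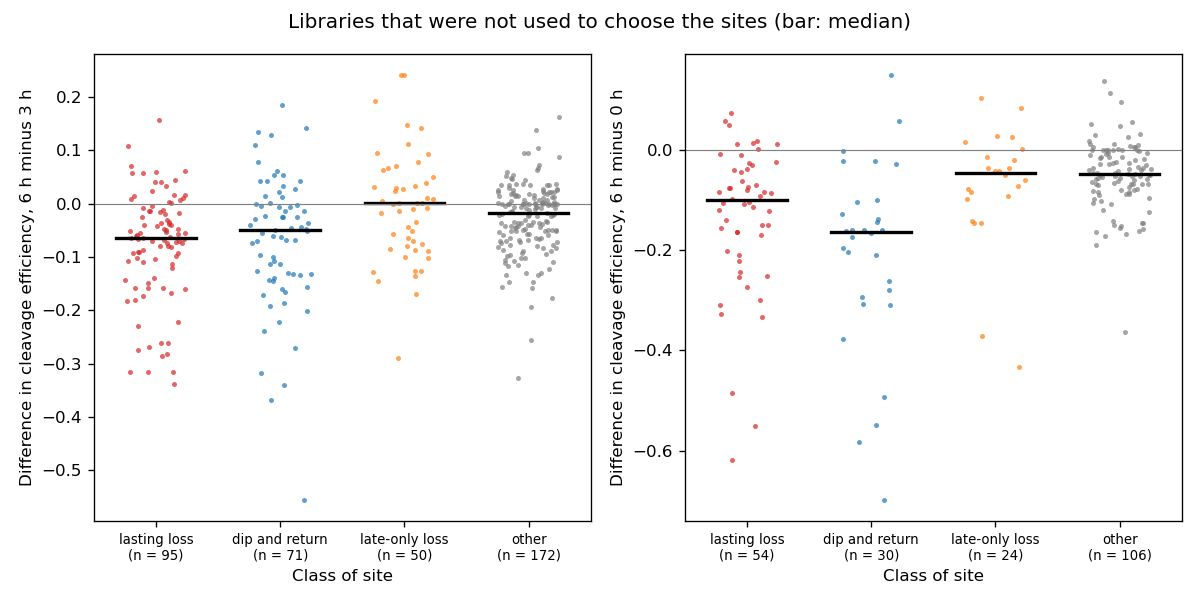
Difference in cleavage efficiency (y axis, fraction) between 6 h and 3 h (left) and between 6 h and 0 h (right) by class of site (x axis), with 1 point per site, points spread sideways at random and a bar at the median. The late-only class holds the 51 sites with early minus mid under 0.04 and a late mean at least 0.04 below the mid mean. Medians of 6 h minus 3 h were -0.0637 at members and -0.0167 at the sites called other, and for 6 h minus 0 h the sites with a dip and return were lowest, at -0.163.

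The 73 sites with a dip and return met the same first condition and differed in the second. The median of 6 h minus 3 h was -0.0637 in the members, with 75 of 95 lower, and -0.0487 in the sites with a dip and return, with 53 of 71 lower (74.6%). Relative to 0 h the medians of the members were -0.0375 at 3 h and -0.101 at 6 h over 54 sites. Those of the sites with a dip and return were lower, -0.140 at 3 h and -0.163 at 6 h over 30 sites. Relative to their own mid mean, 58 of 96 members (60.4%) were lower at 6 h, against 27 of 72 sites with a dip and return (37.5%) and 59.5% of all other sites with the 7 values. The last comparison uses the mid mean, which the rule also used, and the difference between the classes was not tested.

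The median listed position of the members within the gene was 1123, against 1144 for the other sites with the 7 values, and 49 of 96 (51.0%) were on the plus strand, against 49.2%. They lay on 15 chromosomes, with 16 of 96 on chromosome 4 and 13 on chromosome 11, against 51 and 21 of the other 299 sites. A value at 0 h was present for 54 members (56.2%), against 53.8% of the other sites with the 7 values and 25.3% of all sites. A value of exactly 1 at 1 or 2 h was present at 18 members (18.8%), among them MDM1, MLO50, YOS9, ADE6 and MRPL3, and at 17.4% of the other sites. The reads behind a value are unknown, so whether such a start rests on few reads was not tested. Many values under 1 were shared to all digits with another site, which was the case for 27 of 93 member values at 3.5 h (29.0%) and 54 of 93 at 8 h (58.1%), against 54.9% and 57.9% over all sites. Among the 12 members with the largest difference, sharing was most frequent at the early hours of AIM2, with 11 other sites at 1 h and 13 at 2 h, and of MDM1, with 10 at 2 h and 8 at 3 h. MDM1 and YAP5 shared their 7 h value with 4 other sites, ENO2 among them, while SAE3, RIM4, GFA1, SRT1 and YDR524C-B shared none of their values from 3.5 to 7 h.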

How the data were processed

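Cleavage efficiencies, a fraction per site and library, were used as deposited by the authors, with no scaling. Per the file headers the RNA was treated with MazF, and bedtools 2.26.0 and STAR 2.5.3a are named in the submitters' processing notes. The genome build, the rule for missing values and coverage were not given in the sources used here, so depth is unknown. The hour in a column's name matched it to its sample. Another 4 columns match no label and were used in no step, so the planned comparison of the ime4 deletion with wild-type controls was not made.

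Of 1198 rows, 14 repeats of a position were removed, keeping the row named in R64. R64 gave names only (1002 of 1020 identifiers, and all 94 member genes). The coordinates are not those of R64, so no sequence was read. Slopes over 0, 3 and 6 h were fitted with limma 3.58.1 in R 4.3.3, with a mean-dependent prior variance, and the step was tested on simulated data. There, falls of 0.02, 0.04 and 0.08 per hour were called at 19%, 84% and 100% of the sites given them. Of all these calls, 8.14% were false. The simulated noise came from the median residual scatter of sites with 1 degree of freedom, which understates the spread. In the real data, slopes of -0.103 in YDR524C-B, -0.0917 in CPR1 and -0.0807 in PRE1 were not called (limma adjusted p = 0.241 each). The simulated rates are therefore not those of the real data. Counts and figures used Python 3.11.15 with pandas 2.3.3. Alternatives covered thresholds, scaling, the scale of the fit, filters and leaving out each library. The members, the 19 gene lists and the tests were chosen with earlier results of these data known. Sites were named as the 12 largest early minus mid differences, the 6 lowest late minus mid, up to 4 per list, 3 on each side of a threshold, 6 genes with a member and another site, genes with 2 members, the 3 smallest p and the 6 complete members lowest at 6 h. Others named were chosen after their values were seen. The p-values measure the scatter of single libraries around a line.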

Additional observations from a re-analysis of the deposited data

How the results depend on the processing

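The number of members was 96. It was 101 with both thresholds at 0.03, 92 at 0.05 and 55 at 0.10. It was 61 after shifting the libraries to 1 median and 62 after scaling them, all of these among the 96, 54 with a value in all 10 libraries and 78 without sites at exactly 1. Leaving out each of the 7 libraries gave 78 to 132 members, of which 65 to 91 were among the 96. These totals can include sites without a value in the left-out library. In all 7 settings 33 sites were members. Members lower at 6 h than at 3 h numbered 75 as deposited and 66 to 67 after scaling or shifting. They were 45 of the 54 complete members, and 45 of 54 with thresholds at 0.10. The median difference was -0.0637, and it was -0.0389 after shifting, -0.0396 after scaling and -0.130 with thresholds at 0.10. The median slope of the members over 0, 3 and 6 h was -0.0169 per hour, -0.00515 after shifting, and -0.0194 to -0.0125 without any 1 of the 3 libraries, values with no test. limma called 0 members in every setting run and 0 sites in all but 1. After shifting the libraries 1 site, no member, had a positive slope past the threshold (21 negative and 22 positive at an unadjusted p under 0.05).

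Of 448 alternative values of early minus mid at 64 named sites, 14 changed sign. Leaving out each library gave -0.0208 to 0.125 in MEI4, -0.00450 to 0.182 in ACC1, -0.0393 to 0.121 in HAP4, -0.0128 to 0.0931 in MEP1, -0.0219 to 0.225 in FTR1, -0.123 to 0.0531 at PCH2 1283 and -0.0763 to 0.0106 at UBA1 539, with the sign turned without 1 h. At REG1 3300 it was -0.00868 after shifting, -0.00866 after scaling and -0.00383 (without 2 h) to 0.0402 over the left-out libraries. At CPR1 653 it was -0.0241, -0.0247 and -0.00464 to 0.0102, and -0.00307 without 4 h. The cause was not tested. The settings meant for the comparison of the controls were not run. No paired analysis was possible because each hour has 1 library and the numbered controls were not analysed here. Unknown depth limits every value.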
